A study of Rattus norvegicus with 6 samples.

Results

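The BCL2 family sets whether a cell lives or starts apoptosis at the mitochondrion. It was followed here through 10 genes: the survival genes Bcl2, Bcl2l1 and Mcl1, the BH3-only genes Bcl2l11, Bmf, Bbc3, Pmaip1 and Bid, and the effector genes Bax and Bak1. They are 10 of the 14506 genes that a probe set of the array named alone, and each was read from its probe set with the highest mean over the 6 arrays. The cells were RBL-2H3, a rat basophilic leukaemia line used as a mast cell model, and all 3 groups overexpressed wild-type Dectin-1, a beta-glucan receptor. The control group was 2 arrays of unstimulated cells. Curdlan, a particulate beta-glucan, was given alone for 2 further arrays, and after pretreatment with R406, a Syk inhibitor, for the last 2. The sources used here give no dose, no time and no word on whether the line was 1 clone.

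Pro-survival proteins of the family hold the effector proteins BAX and BAK in check, and BH3-only proteins, made or freed under stress or on loss of growth signals, bind the survival proteins and so release or directly activate the effectors. Active effectors permeabilise the outer mitochondrial membrane, cytochrome c leaves, and caspases are switched on. Mast cells depend on this balance for their long life, and loss of growth factor signals is known to raise the BH3-only protein BIM, encoded by Bcl2l11. Much of the family's control also lies in protein modification and turnover, which an RNA measurement does not see.

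The labels call the cells mast cells. Of 14 measured mast cell markers, 12 lay above the median of all probe sets, among them Ms4a2 and Fcer1a, which encode chains of the IgE receptor. The tryptase genes Tpsb2 and Tpsab1 did not, at the 31.6th and 28.9th percentiles. The mean level of the list lay between 11.97 and 11.99 in all 6 arrays, and 0 of its genes were called in any comparison (limma; 5, 2 and 3 of 14 had an unadjusted p under 0.05). The lists for lymphocytes, for fibroblasts and epithelia, and for macrophages with neutrophils had mean levels between 6.05 and 6.77 in all arrays. In that order, 2 of 9, 4 of 11 and 2 of 12 of their genes lay above the median of all probe sets. Of their genes, Itgam was called, at -0.36 under R406 against curdlan (adjusted p = 0.0408). Its part in the results was not tested. Array medians lay between 7.204 and 7.241. Levels are log2 signals as the authors deposited them, so a difference of 1 is a doubling, and they are compared between arrays for one gene. Between genes only ranks and list means are given, as a rough guide. In bulk RNA, fewer cells with a transcript and less transcript per cell cannot be told apart.

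Of the 10 genes, 1 was called with curdlan against control, 4 with R406 plus curdlan against curdlan alone, and 2 with R406 plus curdlan against control. A gene was called where its limma p, adjusted by Benjamini-Hochberg across the 29214 probe sets of the array, was under 0.05. Over all genes the same rule called 2.13%, 9.18% and 3.02% in these comparisons (over all probe sets 1.59%, 7.25% and 2.23%). By direction, the family had 0 genes higher and 1 lower with curdlan (1.42% and 0.71% of all genes), 2 and 2 under R406 against curdlan (5.17% and 4.01%), and 1 and 1 under R406 against control (1.92% and 1.1%). The arrays of the 2 groups did not overlap for 5, 7 and 8 of the 10 genes, where 46.8%, 58.0% and 57.4% of all genes did not overlap. The median change of the 10 genes was -0.00306 with curdlan, -0.0552 under R406 against curdlan and -0.13 under R406 against control, beside -0.0196, -0.00226 and -0.0195 over all genes. The 3 comparisons share arrays in pairs, so their values for a gene stand side by side and do not test each other.

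**Figure D1:**
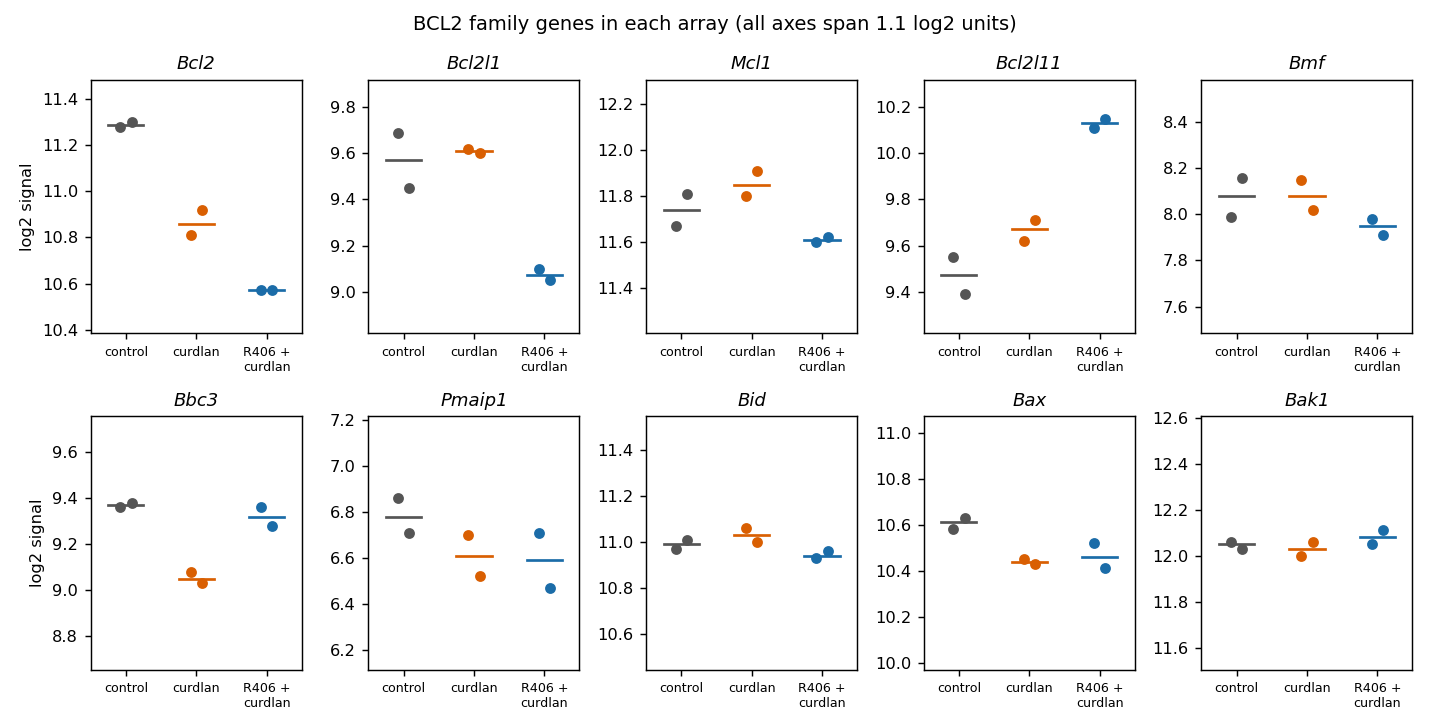
Log2 signal of each of the 10 BCL2 family genes in each of the 6 arrays (points) with the mean of the 2 arrays of a group (lines), for control, curdlan and R406 plus curdlan. Bcl2 steps down from 11.29 to 10.86 to 10.57, Bcl2l11 steps up from 9.47 to 9.67 to 10.13, Bcl2l1 is low only in the R406 arrays, Bbc3 is low only in the curdlan arrays, and Bak1 and Bid lie within 0.13 over all arrays.

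Among the survival genes, Bcl2, which encodes the founding inhibitor of apoptosis of the family, was lower in each step. Its probe set 10766953 read 11.28 and 11.30 in the control arrays, 10.81 and 10.92 in the curdlan arrays, and 10.57 in both R406 plus curdlan arrays. Control was highest and R406 plus curdlan lowest, and no 2 groups overlapped. Bcl2 fell by 0.42 ± 0.0558 (SE, 2 arrays per group) with curdlan, a 1.34-fold change (limma, Benjamini-Hochberg adjusted p = 0.0424). Under R406 it fell by a further 0.29 ± 0.0558 against curdlan alone (adjusted p = 0.045), and the distance to control was -0.72 ± 0.0558, a 1.64-fold fall (adjusted p = 0.0127). The pretreatment thus came with a Bcl2 level farther from control than curdlan alone gave.

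These calls lay close to the threshold. The curdlan call was lost without each of the 6 arrays in turn (adjusted p 0.138 to 0.215) and with arrays centred on their median (0.0507), the R406 call was lost likewise (0.0824 to 0.221, and 0.0637), and the call against control was lost without either control array (0.0916 and 0.11) or either R406 plus curdlan array (0.128 and 0.147). The size of the fall against control was between -0.73 and -0.69 under all alternatives tried.

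Bcl2l1 encodes BCL-XL, and by splicing also the pro-death BCL-XS, which these values do not separate. Its brighter probe set 10724228 read 9.69 and 9.45 in control, 9.62 and 9.60 with curdlan, and 9.10 and 9.05 with R406 plus curdlan. Both R406 arrays lay below all 4 others, while control and curdlan overlapped. Under R406 the gene fell by 0.54 ± 0.0888 against curdlan, a 1.45-fold change (limma adjusted p = 0.0319). A second probe set of the gene, 10850826, dimmer and annotated to the RefSeq transcripts, read 8.23 and 8.12, then 8.18 and 8.10, then 7.54 and 7.76, and fell by 0.49 ± 0.0912 in the same comparison (adjusted p = 0.0437). The brighter set is annotated to a single sequence entry that is no RefSeq transcript. Whether either set also reads a related copy elsewhere in the genome was not tested. The same holds for both sets of Mcl1 and both sets of Bax. With curdlan the change of the brighter set was 0.04, with a 95% interval of -0.19 to 0.27 (adjusted p = 0.899), and against control the R406 value was -0.50 ± 0.0888 (adjusted p = 0.0662). The R406 call was lost without curdlan replicate 1 or 2 (adjusted p = 0.142 and 0.117) and without R406 plus curdlan replicate 1 or 2 (0.14 and 0.18). It was kept without either control array (0.0247).

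Mcl1, which encodes a short-lived survival protein that many blood cells need, was not called. Its probe set 10940458 read 11.67 and 11.81 in control, 11.80 and 11.91 with curdlan, and 11.60 and 11.62 with R406 plus curdlan. The R406 arrays were the lowest, by a small margin against control. The difference under R406 against curdlan was -0.24 with a 95% interval of -0.42 to -0.07 (limma adjusted p = 0.121), and it passed when only probe sets above the median signal were tested (0.0391) and with an intensity trend (0.0205). A second probe set, 10840632, gave the same difference of -0.24 with a wider interval of -0.56 to 0.08. With curdlan the change was 0.11, between -0.06 and 0.29 (adjusted p = 0.544).

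Among the BH3-only genes, Bcl2l11 was the one that moved furthest. Its probe set 10839655 read 9.55 and 9.39 in control, 9.62 and 9.71 with curdlan, and 10.11 and 10.15 with R406 plus curdlan. The R406 arrays were the highest and no 2 groups overlapped. Under R406 it rose by 0.46 ± 0.0729 against curdlan, a 1.38-fold change (limma adjusted p = 0.0285), and by 0.66 ± 0.0729 against control, a 1.58-fold change (adjusted p = 0.025). Curdlan alone gave 0.20 ± 0.0729, with a 95% interval of 0.01 to 0.38 (adjusted p = 0.322). So Bcl2l11 and Bcl2, whose proteins bind each other, were called in opposite directions in both comparisons of the R406 arrays. The call against curdlan was lost without curdlan replicate 1 or 2 (0.133 and 0.0848) or R406 plus curdlan replicate 1 or 2 (0.133 and 0.17), and the call against control without each of the 6 arrays in turn (0.0626 to 0.194) and in the fit of only the 4 arrays compared (0.0626).

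The promoter windows of these 3 genes are shown because their transcripts moved in opposite directions under R406. RefSeq's GRCr8 table gave 300-base windows, 250 bases before and 50 after an annotated start, for 8 of the 10 genes. It gave none for Bbc3 and Bax, so their promoters were not searched. Capitals mark matches, on either strand, to the forkhead letters TGTTTAC (bound by FOXO factors, reverse GTAAACA) and to the STAT letters TTCNNNGAA. The first window is chr3:135819792-135820091 on the plus strand, the second chr13:23366851-23367150 and the third chr3:161763336-161763635, both on the minus strand, each written 5′ to 3′ along its gene.
Bcl2l11: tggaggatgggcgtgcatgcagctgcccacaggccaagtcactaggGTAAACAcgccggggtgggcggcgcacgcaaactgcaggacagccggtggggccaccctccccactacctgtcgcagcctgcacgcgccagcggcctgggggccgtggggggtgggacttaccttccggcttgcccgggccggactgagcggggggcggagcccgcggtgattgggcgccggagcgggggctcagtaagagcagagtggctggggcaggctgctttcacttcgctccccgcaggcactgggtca
Bcl2: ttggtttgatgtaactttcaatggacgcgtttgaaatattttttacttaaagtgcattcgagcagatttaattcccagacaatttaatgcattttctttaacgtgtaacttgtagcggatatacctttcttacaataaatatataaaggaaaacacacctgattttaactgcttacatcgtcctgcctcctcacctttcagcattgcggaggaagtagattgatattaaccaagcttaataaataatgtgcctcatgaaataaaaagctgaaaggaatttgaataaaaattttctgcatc
Bcl2l1: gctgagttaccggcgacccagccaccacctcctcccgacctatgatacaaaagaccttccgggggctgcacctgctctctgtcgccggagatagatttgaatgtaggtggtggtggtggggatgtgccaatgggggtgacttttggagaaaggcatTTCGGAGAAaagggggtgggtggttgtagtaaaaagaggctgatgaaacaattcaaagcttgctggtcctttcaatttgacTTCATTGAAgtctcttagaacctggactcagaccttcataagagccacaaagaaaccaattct
The Bcl2l11 window held 1 forkhead match, whose first base lies at -204 from the start, and none of the other 10 windows of the family held one. Over all 33469 promoter windows of the table, 3.78% held these letters. The table gave 4 windows for Bcl2l1, of which the fourth is printed because it held STAT matches, 2 of them, at -94 and -13. The same 2 lie in the second window, which overlaps it, and the first and the third window held 0, so the gene has 1 stretch with these letters. STAT letters occurred in 8.87% of all windows. That is a share per window, and a gene searched in 4 windows has more places for a match. The Bcl2 window held none of the 5 motifs searched, which also included the E-box CACGTG (6.42% of all windows), the CRE core TGACGT (7.94%) and the GC box GGGCGG (33.1%). At 32.7% G and C it was the poorest of the 11 windows of the family in these bases, and the Bcl2l11 window, at 71.0%, was the richest. A match is a string of letters and no evidence of binding in these cells.

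Bbc3, which encodes PUMA, a BH3-only protein induced by p53 and also by FOXO3, showed a different pattern. Its probe set 10940588 read 9.36 and 9.38 in control, 9.08 and 9.03 with curdlan, and 9.36 and 9.28 with R406 plus curdlan. Both curdlan arrays lay below the other 4. With curdlan the difference was -0.32 ± 0.0521, with a 95% interval of -0.45 to -0.18, and did not pass (limma adjusted p = 0.0674). It did pass among probe sets above the median signal (0.0115) and with an intensity trend (0.0143). Under R406 Bbc3 rose by 0.26 ± 0.0521 against curdlan, at the edge of the threshold (adjusted p = 0.0498), and the value against control was -0.05, between -0.19 and 0.08 (adjusted p = 0.619). That call was lost without each of the 6 arrays in turn (0.094 to 0.233), after quantile normalization (0.0842) and in the fit of only the 4 arrays compared (0.094).

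The remaining BH3-only genes were not called in any comparison. Bmf, whose protein is known for its response to loss of attachment, read 7.99 and 8.16 in control, 8.15 and 8.02 with curdlan, and 7.98 and 7.91 with R406 plus curdlan. Control and curdlan overlapped, and the 95% interval of the R406 difference from curdlan was -0.35 to 0.07 (limma adjusted p = 0.417). Pmaip1 encodes NOXA, which binds MCL1. It had the lowest rank of the 10 genes, at percentile 39.9 among the probe sets, and its arrays spread over 0.39 log2 units, from 6.47 to 6.86, with at least 0.15 between the 2 arrays of each group. Its changes were -0.17 with curdlan (95% interval -0.46 to 0.12) and -0.02 under R406 against curdlan (-0.31 to 0.27). Bid encodes a BH3-only protein cut by caspase 8. Its level lay between 10.93 and 11.06 in all arrays, and the intervals of its 3 differences lay within -0.21 and 0.16.

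Neither effector gene was called in any comparison (limma). Bak1 read 12.06 and 12.03 in control, 12.00 and 12.06 with curdlan, and 12.05 and 12.11 with R406 plus curdlan, so that all groups overlapped. The 95% intervals of its changes were -0.14 to 0.12 with curdlan and -0.08 to 0.18 under R406 against curdlan (limma adjusted p = 0.96 and 0.647). Bax, whose probe set 10738460 was used, read 10.58 and 10.63 in control, 10.45 and 10.43 with curdlan, and 10.52 and 10.41 with R406 plus curdlan. Both control arrays lay above the other 4. The difference with curdlan was -0.17, between -0.31 and -0.02 (adjusted p = 0.291), while a second, nearly as bright probe set, 10721834, gave -0.05, between -0.19 and 0.09 (adjusted p = 0.757).

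**Figure D2:**
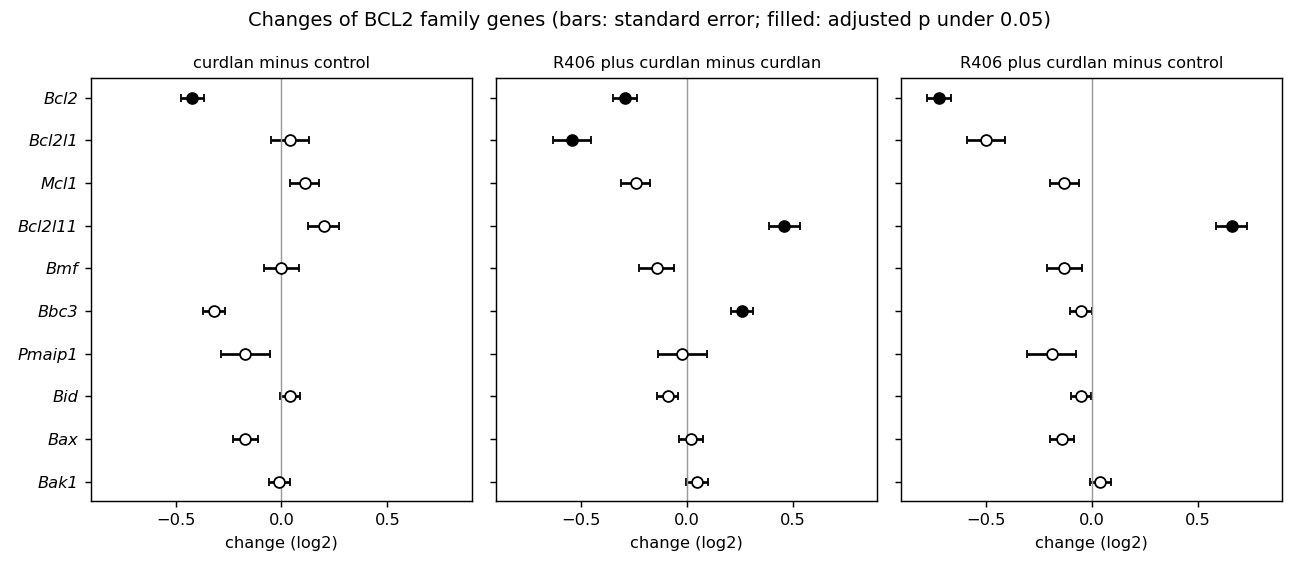
Change of each BCL2 family gene on the log2 scale in the 3 comparisons, with the standard error of the limma model, filled where the adjusted p was under 0.05. Bcl2 is filled on the low side in all 3 panels, Bcl2l11 is filled on the high side in both panels with R406, and Bcl2l1 and Bbc3 are filled, on opposite sides, in the middle panel.

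The other genes of the family gave no call. Of 13 further measured relatives, 0 were called in any of the 3 comparisons (limma), and 1, 4 and 4 of them had an unadjusted p under 0.05, where 15.9%, 25.1% and 22.1% of all genes had. Bad, a BH3-only gene whose protein is held inactive by phosphorylation, had an R406 difference from curdlan of 0.19 (adjusted p = 0.101). Bnip3l, known from mitophagy, had 0.19 as well (adjusted p = 0.106). Bok, Bcl2l10 and Bik went the other way in that comparison, at -0.16, -0.14 and -0.26 (limma adjusted p = 0.222, 0.168 and 0.374). Of the 13 changes there, 7 were positive. Bcl2l10 and Bik ranked low, at the 19.0th and 24.2nd percentiles. Bcl2a1, a survival gene that mast cells are known to induce through the IgE receptor, lay between 6.74 and 6.93 in all 6 arrays, at the 43.7th percentile, and its change with curdlan was -0.09, between -0.27 and 0.08 (adjusted p = 0.634). Levels of these ranks were not set against a background level here.

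In the list of the mitochondrial death pathway and caspases, 19 genes were measured. With curdlan 0 of the 19 were called, with 3 under R406 against curdlan and 1 under R406 against control (limma). Of all genes, 2.13%, 9.18% and 3.02% were called. An unadjusted p under 0.05 was found for 3, 8 and 5 of the 19, beside 15.9%, 25.1% and 22.1% of all genes. Birc3, which encodes the inhibitor of apoptosis protein cIAP2, read 8.58 and 8.52 in control, 8.71 and 8.71 with curdlan, and 7.84 and 7.99 with R406 plus curdlan. It fell under R406 by 0.79 ± 0.0648 against curdlan (limma adjusted p = 0.00562) and by 0.64 ± 0.0648 against control (adjusted p = 0.0203). Casp2 and Casp6, genes of an initiator and an executioner caspase, rose by 0.44 ± 0.0468 and 0.31 ± 0.0559 against curdlan. Of 15 death receptor genes, 0, 0 and 1 were called (5, 5 and 4 had an unadjusted p under 0.05). The 1 gene was Casp8, the initiator caspase of that pathway, which fell by 0.46 ± 0.0482 under R406 against control (adjusted p = 0.0224). Its difference was -0.31 with curdlan alone and -0.15 under R406 against curdlan, neither of them called (limma adjusted p = 0.0612 and 0.157). Of 18 genes for protein partners and turnover of the family, 0 were called in any comparison, and 1, 1 and 3 had an unadjusted p under 0.05.

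Of 18 measured transcription factor genes known to act on the family, 1 was higher and 2 lower with curdlan (1.42% and 0.71% of all genes were), 5 higher and 3 lower under R406 against curdlan (5.17% and 4.01%), and 1 and 1 under R406 against control (1.92% and 1.1%). Their median changes were -0.0149, 0.0623 and 0.0234, beside -0.0196, -0.00226 and -0.0195 over all genes. Foxo3, whose protein is known to act on Bcl2l11 and Bbc3, read 10.74 and 10.98 in control, 10.20 and 10.29 with curdlan, and 10.85 and 10.88 with R406 plus curdlan. It rose by 0.62 ± 0.0922 under R406 against curdlan (limma adjusted p = 0.0245) and its curdlan difference of -0.61 did not pass (adjusted p = 0.0567). Foxo1 went the other way, up by 0.64 ± 0.0543 with curdlan and down under R406, where it fell by 0.78 ± 0.0543. Ddit3, the gene of CHOP, and Atf4, the gene of the stress factor above it, fell with curdlan, by 1.12 ± 0.0747 and 0.83 ± 0.0639, and rose by 0.85 and 1.03 under R406. In the R406 comparison Myc fell by 3.93 ± 0.0807, Stat3 fell by 0.23 ± 0.044, and Bcl6, a repressor gene, rose by 2.77 ± 0.0869. Against control, Myc at -3.38 and Bcl6 at 2.18 were the 2 called.

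Targets of FOXO factors other than the family had a median change of 0.00135 with curdlan, 0.185 under R406 against curdlan and 0.255 against control, beside -0.0196, -0.00226 and -0.0195 over all genes. Of the 19 measured, 0 were higher and 2 lower with curdlan, 7 higher and 1 lower under R406 against curdlan, and again 7 and 1 against control. Of all genes, 1.42% were higher and 0.71% lower with curdlan, 5.17% and 4.01% under R406 against curdlan, and 1.92% and 1.1% against control. This list, like the others, was chosen with earlier results of these data known, so its counts are descriptive. Activity of FOXO factors was not tested. With curdlan the cyclin gene Ccng2 fell by 1.89 ± 0.0675 and the PI3-kinase inhibitor gene Pik3ip1 fell by 0.80 ± 0.0493. Under R406 Bcl6, Ccng2, the thioredoxin inhibitor gene Txnip and Pik3ip1 rose, by 2.77, 2.42, 2.15 and 1.25, while the stress gene Gadd45a fell by 1.25. Against control, Bcl6 and Txnip rose by 2.18 and 1.92, the mitophagy kinase gene Pink1 by 0.91 and the ubiquitin ligase gene Fbxo32 by 0.68, while Gadd45a fell by 1.03. Fbxo32 ranked low, at the 24.3rd percentile, and was not set against a background level.

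Targets of p53 went both ways. Of 15 measured, 1 was higher and 0 lower with curdlan, 3 and 2 under R406 against curdlan, and 1 and 2 against control, where 2.13%, 9.18% and 3.02% of all genes were called in either direction. Their medians were -0.0114, 0.0286 and 0.0042, beside -0.0196, -0.00226 and -0.0195 over all genes. Tp53inp1, which encodes a stress protein, rose by 0.45 ± 0.0488 with curdlan and by a further 0.29 ± 0.0488 under R406. Rrm2b and Gtse1 rose under R406 against curdlan by 0.38 and 0.27. Cdkn1a, the gene of the cell cycle inhibitor p21, fell by 0.74 ± 0.0697 under R406 and the exonuclease gene Aen fell by 0.59 ± 0.0436. Against control, Tp53inp1 rose by 0.74, Aen fell by 0.42 and Mdm2, the ligase gene that limits p53, fell by 0.34. Of the 36 calls named in these lists, 12 passed in each fit without 1 array: Ccng2 with curdlan, Atf4, Bcl6, Birc3, Ccng2, Gadd45a, Myc, Pik3ip1 and Txnip under R406 against curdlan, and Bcl6, Myc and Txnip against control. The other 24 were lost without at least 1 array.

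**Figure D3:**
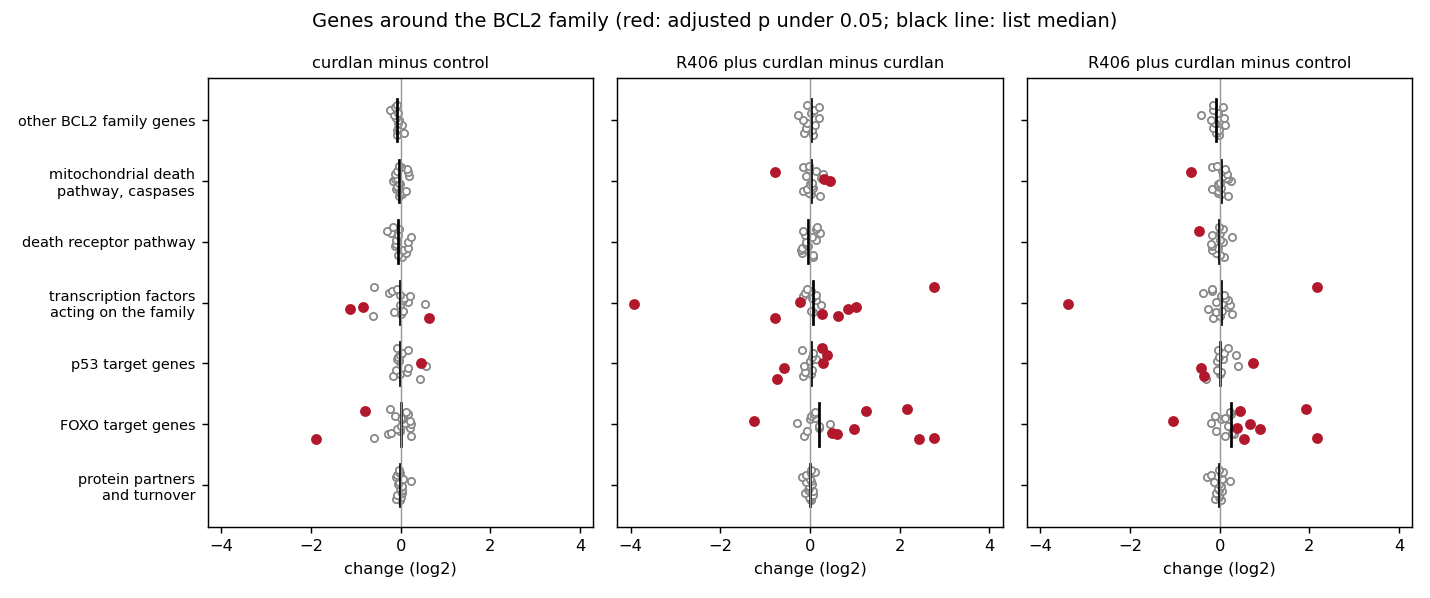
Change on the log2 scale of each measured gene of 7 lists around the BCL2 family in the 3 comparisons, red where the adjusted p was under 0.05, with the median of each list as a black line. The further BCL2 relatives and the protein partners hold no red point, and the FOXO targets hold 7 red points on the high side in each R406 panel.

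The genes whose profiles lay closest to those of the 4 called members were taken from the 1449 other genes called in any comparison, by the root mean square difference of the mean-centred log2 profiles over the 6 arrays. Closest to Bcl2 were Zfp143, Gzf1 and Zfp608, which encode zinc finger proteins, at 0.0693, 0.092 and 0.0935. Closest to Bcl2l1 were Nfatc2, a gene of a calcium-regulated transcription factor, Tmem199 and Rap1gap2, at 0.0528, 0.0585 and 0.0602. Nfatc2 read 8.96 and 8.84 in control, 8.95 and 9.03 with curdlan, and 8.50 and 8.41 with R406 plus curdlan. Closest to Bcl2l11 were the autophagy kinase gene Ulk2, Zc2hc1a and Sowahc, at 0.047, 0.0484 and 0.0486. Ulk2 read 9.55 and 9.47, then 9.64 and 9.64, then 10.10 and 10.12 in the same order of groups. Closest to Bbc3 were the DNA repair gene Rad51d, Coq10a and Recql5, which encodes a DNA helicase, at 0.0242, 0.0345 and 0.0347. Without 1 array, 4 to 9 of these 12 genes were again among the closest 3, and the fewest, 4, when control replicate 1 was left out, followed by 6 for control replicate 2 and 7 for curdlan replicate 1.

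**Figure D4:**
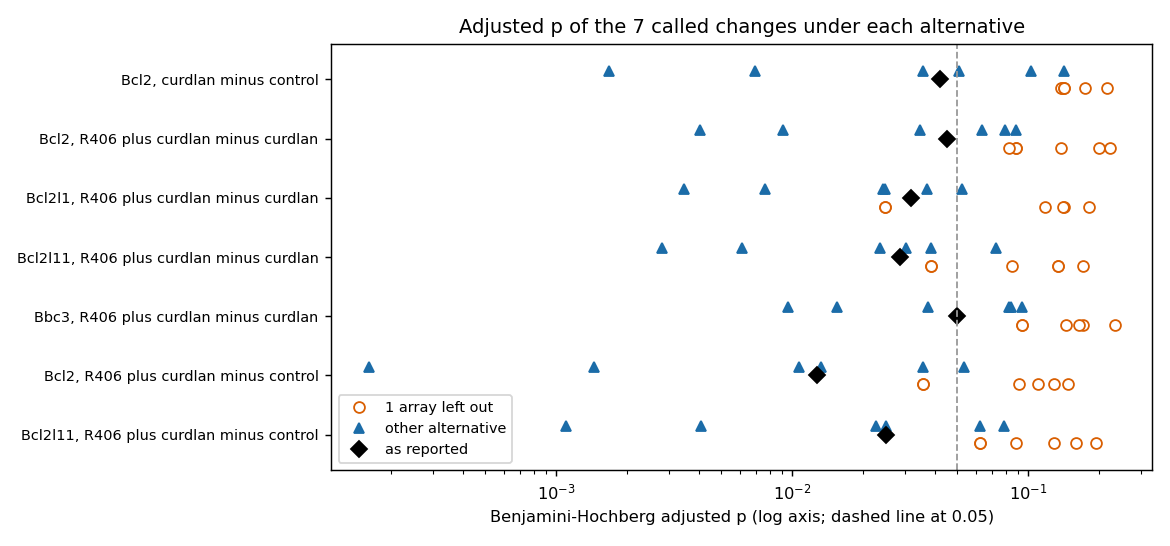
Benjamini-Hochberg adjusted p (log axis) of the 7 called changes of BCL2 family genes, as reported (diamonds), without 1 array (circles) and under the other alternatives (triangles), with a dashed line at 0.05. All 7 diamonds lie under 0.05, and each row has circles to the right of the line.

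R406 was given only together with curdlan, so a blocked curdlan response and an effect of R406 by itself cannot be told apart in any of these values. For Bbc3 the R406 level lay near control. For Bcl2, Bcl2l1 and Bcl2l11 the R406 arrays lay above or below every array of both other groups. The same held for Mcl1, Bmf and Bid, which were not called. Bmf and Bid met this narrowly, with R406 arrays at 7.98 and 10.96 beside control arrays at 7.99 and 10.97. Over all genes, the R406 arrays did not overlap the curdlan arrays for 58.0%, and the control arrays for 57.4%. Those shares are for each comparison alone. The share of all genes with R406 arrays outside both groups at once was not counted, so the members have no matching background here.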

How the data were processed

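Total RNA of RBL-2H3 cells was labelled with biotin and hybridised to rat Affymetrix arrays, 2 per group, per the labels. The authors deposited a log2 signal for each probe set, for which the submitters' processing notes name Affymetrix Expression Console (version, summarisation, normalization and build: not given in the sources used here). Base 2 was read from the size of the values. The platform annotation gave 1 gene symbol for 15310 of 29214 probe sets, covering 14506 genes. A gene was read from its probe set with the highest mean over the 6 arrays. No detection call was used. The number of arrays limits the precision.

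A single limma model (R 4.3.3, limma 3.58.1) covered the 6 arrays and 3 groups, with 3 residual and 2.16 prior degrees of freedom, and Benjamini-Hochberg adjustment ran over all 29214 probe sets. Nothing in the labels tells whether arrays of a group are separate cultures. The p-values therefore measure spread between arrays, which may be technical. The fit was tested on simulated data with a common spread for all probe sets and with changes larger than those called for the 10 genes. That test does not show how the fit handles unequal spreads or changes of their size. Members, gene lists and tests were chosen with earlier results of these data known. Named were all 10 members, up to 4 called genes per list, direction and comparison, and the 3 genes most like each called member. Itgam, Bad, Bnip3l, Bok, Bcl2l10, Bik, Bcl2a1 and the second probe sets were named after their values were seen. No list was tested as a set. List genes without a single-symbol probe set were not analysed here. Promoter windows came from RefSeq (GRCr8). Protein sequences were not used here.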

Additional observations from a re-analysis of the deposited data

How the results depend on the processing

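All called changes of the 10 genes kept their direction under each alternative tried, and the calls depended on the number of arrays. Of the 10 genes, 0 were called with curdlan without any 1 array, 0 to 2 under R406 against curdlan and 0 to 1 under R406 against control. With the replicate number as a block 0, 0 and 0 were called, and at an adjusted p under 0.01 also 0, 0 and 0. In the fit of the 4 arrays compared the counts were 0, 2 and 1. With curdlan, centring arrays on their median gave 0, and testing only probe sets above the median signal, or an intensity trend, gave 2 each. Over all probe sets, 32 to 68, 210 to 1232 and 15 to 182 were called without 1 array in the 3 comparisons, 102, 1129 and 62 with the replicate block, 1572, 3717 and 2278 above the median signal, 1557, 3767 and 2341 with the intensity trend, 68, 1232 and 182 in the fit of 4 arrays, and 78, 561 and 66 at 0.01. Of 114 pathway genes, 6, 23 and 14 were called, with 1 to 3, 9 to 17 and 3 to 6 without 1 array, 24, 36 and 31 above the median signal, and 3, 15 and 5 at 0.01. The intensity trend gave 24 with curdlan and 34 against control, the fit of 4 arrays 3 and 6, and the replicate block 4 against control. Fits with fewer arrays have fewer degrees of freedom, and the filter tests fewer probe sets. For a given comparison, leaving out an array of the third group gives the same fit as using only the 4 arrays compared. These are therefore not separate alternatives, here or for the single genes above.

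Uncalled values near 0 changed sign without 1 array: with curdlan Bcl2l1 ranged from -0.08 to 0.16, Bmf from -0.08 to 0.09 and Bak1 from -0.04 to 0.02, and under R406 against curdlan Pmaip1 ranged from -0.14 to 0.10 and Bax from -0.03 to 0.08. Bmf was -0.06 and Bak1 0.02 without curdlan replicate 1, and Pmaip1 was 0.01 after quantile normalization. Same-numbered arrays of different groups deviated with correlations of -0.115, -0.005 and 0.113, so the numbers were not treated as pairs. Pmaip1 lay below the median signal and was not tested under that filter.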
